A study of Mus musculus with 16 samples.

Results

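The leukemic cells described here are a transplantable mouse B-cell acute lymphoblastic leukemia (B-ALL) that carries BCR-ABL, lacks Arf and is marked with luciferase and mCherry. The same cells were given to 2 kinds of host, so the groups differ in the host and not in the injected cells. WT hosts were C57BL/6J mice, and IL-6 KO hosts carried a germline loss of Il6. All hosts were 6 to 8 weeks old and of either sex, received 500000 cells by tail vein and no drug, and gave their femoral and tibial marrow 8 days later. mCherry+ cells were sorted from that marrow, and their RNA was sequenced after depletion of ribosomal RNA. The leukemic libraries are those whose labels place them in the tumor compartment, 4 from WT hosts and 4 from IL-6 KO hosts, and they make up 8 of the 16 libraries of the series. The labels give replicate numbers without saying that each library is 1 mouse, so the p-values below measure the spread between these libraries, and all of them rest on 1 leukemia line.

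IL-6 is a cytokine that marrow stroma secretes, and its absence from the host leaves the question of which programs of the leukemic cells follow it. On cells that carry the receptor chain IL-6Rα (Il6ra), IL-6 engages gp130 (Il6st), activates JAK kinases and leads STAT3 to the promoters of genes such as Socs3, the feedback inhibitor of the same pathway. BCR-ABL is a fused tyrosine kinase that signals without a ligand through Ras, PI3K and STAT5. The cells it transforms in this model resemble pre-B cells, which display a pre-B cell receptor made of the heavy chain Ighm, the surrogate light chains Vpreb1 and Igll1, and the signaling chains Cd79a and Cd79b.

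Values are normalized counts, which are read counts per gene scaled between libraries, and differences are IL-6 KO minus WT hosts on a log2(normalized count + 1) scale. An adjusted p is that of limma with Benjamini-Hochberg adjustment over all genes tested, and a gene is called at an adjusted p under 0.05. A log2 difference of 1 is a doubling of the value.

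The markers of the leukemia itself were high in all 8 libraries. All 19 members of a pre-B list were measured, and their summed level ran from 183459 to 185883 normalized counts in WT hosts and from 188601 to 199466 in IL-6 KO hosts. Igll1 differed by 0.07 and Cd79a by 0.15, and neither was called. Pax5, which fixes B-cell identity, lay between 17078 and 17475 in 7 libraries and at 25352 in IL-6 KO replicate 2. That library also gave the top value of Abl1, the kinase partner of the fusion, at 20357 against 10723 to 14851 in the others. Abl1 differed by -0.05 ± 0.16 (SE) between the hosts and was not called. Bcr, the other partner, was called higher, with 7458, 7467, 7939 and 8720 in WT hosts and 10823, 9831, 9569 and 12156 in IL-6 KO hosts (log2 difference 0.42 ± 0.09 (SE), limma, adjusted p = 0.0116), and it was not called after removal of a trend with GC content that is described next (0.22, limma, adjusted p = 0.178). The table does not separate native Abl1 and Bcr transcripts from the fusion. Cdkn2a, the locus of Arf, differed by 0.15 and was not called, and no value for Il6 was analysed here.

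Of the 14493 genes tested among 15080 listed, 2870 were called, which is 19.8%. The calls comprised 1542 genes higher in IL-6 KO hosts (10.6% of those tested) and 1328 lower (9.16%), and the median difference over all genes was -0.01. The steps were modest, since a called gene differed by 0.49 at the median, and 173 of the higher and 391 of the lower genes passed a log2 difference of 1. The libraries of the hosts did not overlap in 25.6% of the genes tested. The number of calls depended on single libraries, with 1569 without IL-6 KO replicate 4, 1617 without IL-6 KO replicate 1, 1722 without WT replicate 3 and 1791 without WT replicate 2. In the plot of all genes, mitochondrially encoded mRNAs lie low among the abundant transcripts and Fn1, Cd177 and Mpo lie high among those of middle abundance.

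**Figure D1:**
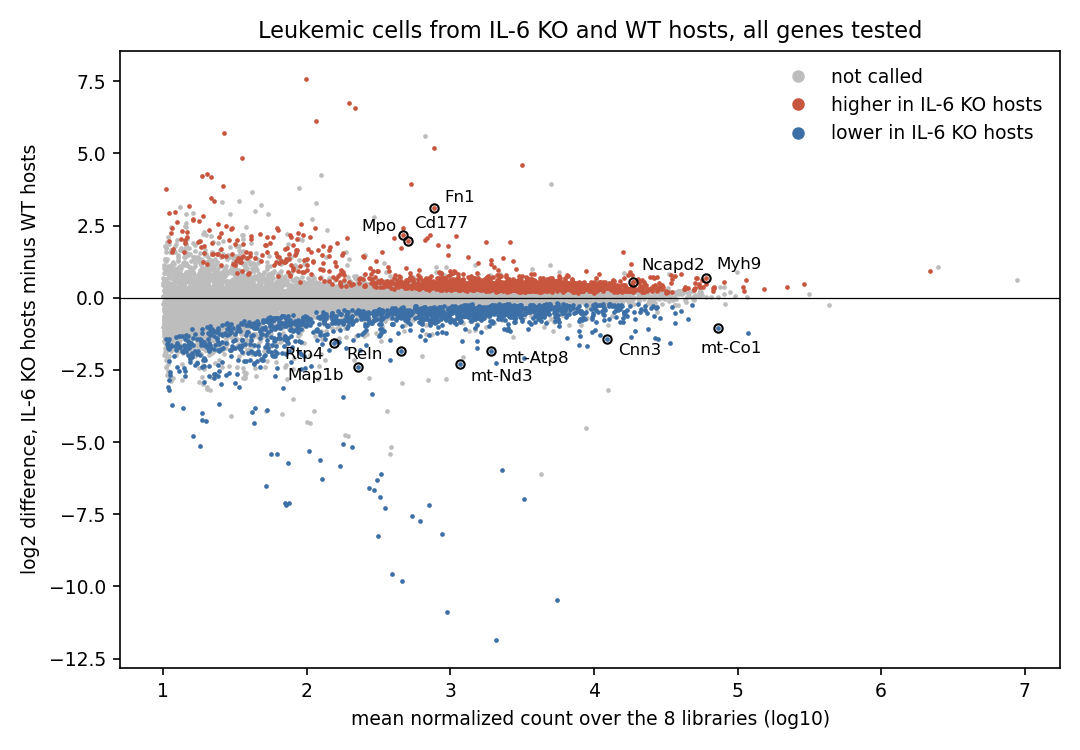
Each point is 1 of the 14493 genes tested, with its mean normalized count over the 8 libraries on the horizontal axis (log10) and its log2 difference, IL-6 KO minus WT hosts, on the vertical axis. Red points are the 1542 genes called higher, blue points the 1328 called lower, grey points the genes not called, and circles mark named genes such as Fn1 at 3.12 and mt-Nd3 at -2.30.

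The difference between hosts moved with the base composition of the transcript. Genes were divided by GC content into 5 classes of equal size. Among the genes of the lowest class (28.3 to 43.3%), 62 were called higher and 539 lower, with a median difference of -0.23. Among those of the highest class (55.0 to 78.3%), 671 were called higher and 95 lower, with a median of 0.22. The tilt was graded over the libraries. In the lowest class the median deviation from the gene means was 0.17 in WT replicate 2 and -0.22 in IL-6 KO replicate 2, the 2 ends, and -0.02 in IL-6 KO replicate 3. Transcript length showed less, with 313 genes called higher and 300 lower in the shortest of 5 length classes and 239 and 365 in the longest. When the trend with GC content and length was removed from each library by a loess fit, 976 genes were called higher (6.74%) and 815 lower (5.63%), and 707 and 692 of these were the same calls. The part of this tilt in the program results was not tested, and the main programs below are given with their counts after that removal. By gene type, protein-coding genes had 1466 higher and 1001 lower calls among 11742. Unannotated transcribed loci (TEC) had 1 and 122 among 768, long intergenic noncoding RNAs 9 and 37 among 333, and sense-intronic RNAs 0 and 13 among 102. After removal of the trend, protein-coding genes had 901 higher and 664 lower calls and TEC loci 1 and 41. Long intergenic noncoding RNAs then had 8 and 15, and sense-intronic RNAs 0 and 6.

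**Figure D2:**
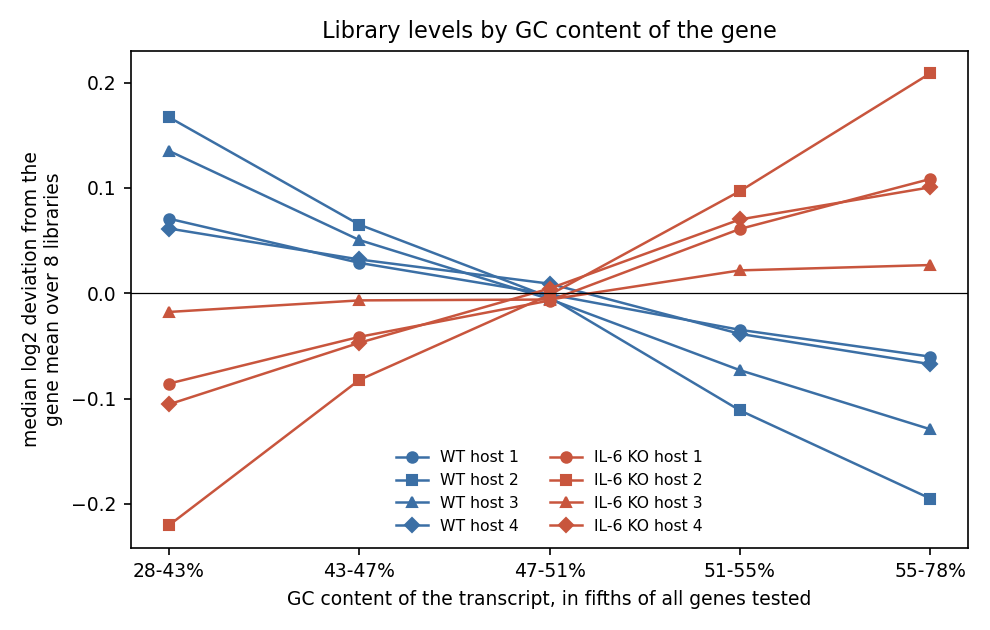
For each library, the median over genes of the log2 deviation from the gene's mean over the 8 libraries is plotted for 5 classes of GC content that hold equal numbers of the genes tested. Blue lines are WT hosts and red lines IL-6 KO hosts, and they cross near 0 in the middle class and spread to 0.17 and -0.22 in the lowest and to -0.19 and 0.21 in the highest.

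The genes were grouped into 39 program lists and 11 cell type lists. In the plot of list medians, 37 of the 39 programs lie within 0.25 of 0 on the log2 scale. The other 2, the mitochondrially encoded mRNAs and the interferon-stimulated genes, lie lower. Counts of called members are those with all 8 libraries, and in most lists they were smaller without WT replicate 2 or 3 or IL-6 KO replicate 1 or 4. Each count is to be read beside the shares over all genes, 10.6% called higher and 9.16% lower.

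**Figure D3:**
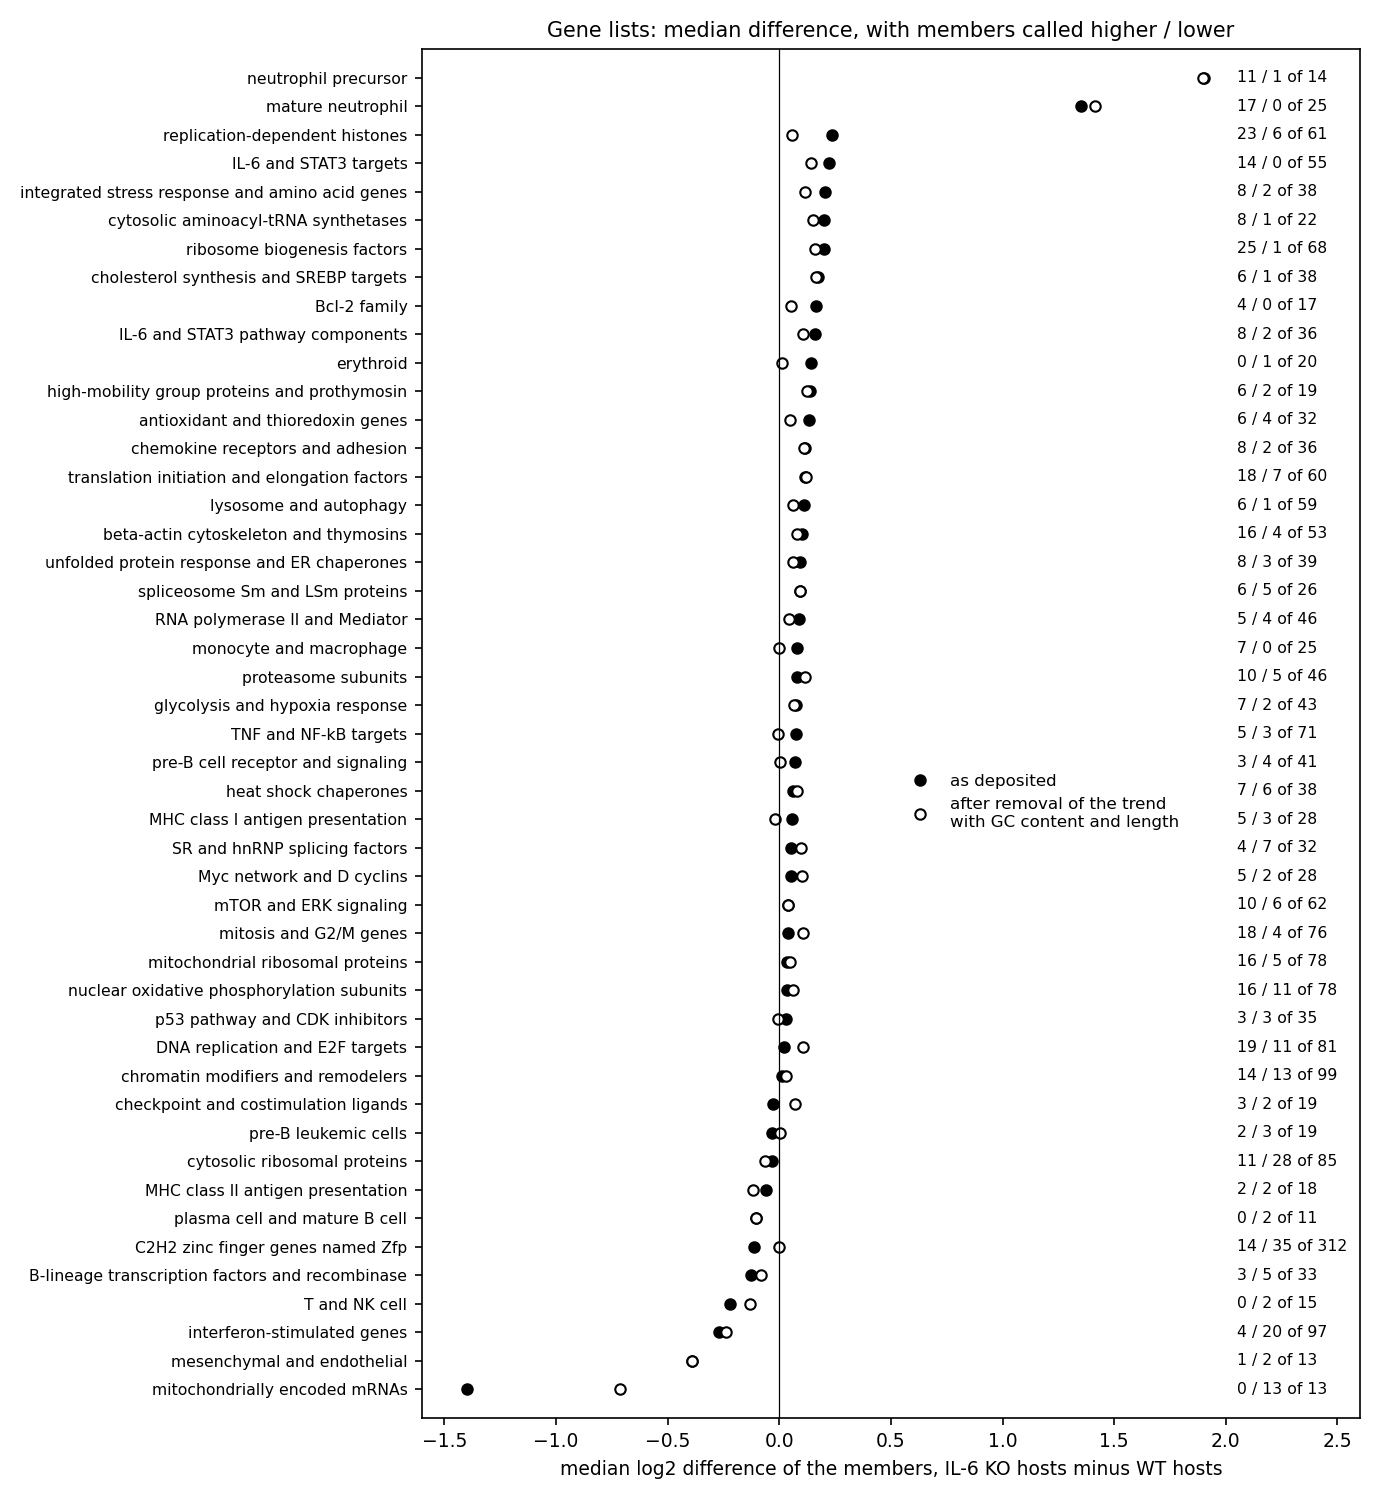
Each row is a gene list with at least 11 tested members, placed by the median log2 difference of its members, IL-6 KO minus WT hosts, as deposited (filled) and after removal of the trend with GC content and transcript length (open). Numbers at the right give the members called higher, called lower and tested, from 11, 1 and 14 for neutrophil precursor markers at the top to 0, 13 and 13 for mitochondrially encoded mRNAs at the bottom.

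The mitochondrial genome encodes 13 subunits of the respiratory chain and ATP synthase, and all 13 mRNAs were lower in IL-6 KO hosts. Their differences ran from -0.85 to -2.30 with a median of -1.40, and no library of one host overlapped the other in any of them. Together they made up 0.692, 1.11, 0.861 and 0.800% of all normalized counts in WT hosts and 0.344, 0.225, 0.326 and 0.313% in IL-6 KO hosts. mt-Nd2 (chromosome M, 3914 to 4951, GRCm38), a subunit of complex I, read 11871, 16404, 13116 and 13458 in WT hosts and 4713, 3804, 4518 and 3978 in IL-6 KO hosts. It fell by 1.68 on the log2 scale (SE 0.11, limma, adjusted p = 3.9e-05) to 31.0% of its WT mean. mt-Co3, a subunit of cytochrome oxidase, fell from 34852, 45220, 37848 and 37304 to 13273, 14498, 16174 and 14738. mt-Atp8 of ATP synthase fell from 2495, 3837, 2737 and 3003 to 898, 950, 837 and 665. WT replicate 2 had the top value in 12 of these 13 mRNAs. The order of the levels per 1000 nt was led by mt-Atp6 and mt-Co1 in WT hosts (74999 and 63087) and by mt-Co1 and mt-Atp6 in IL-6 KO hosts (30933 and 24897).

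These mRNAs are poor in GC, with a median of 37.1%. After removal of the trend with GC content and length, 11 of the 13 were called lower and the median difference was -0.71 in place of -1.40. mt-Nd4 (-0.30, limma, adjusted p = 0.184) and mt-Nd4l (-0.58, limma, adjusted p = 0.266) were the members that no longer passed.

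**Figure D4:**
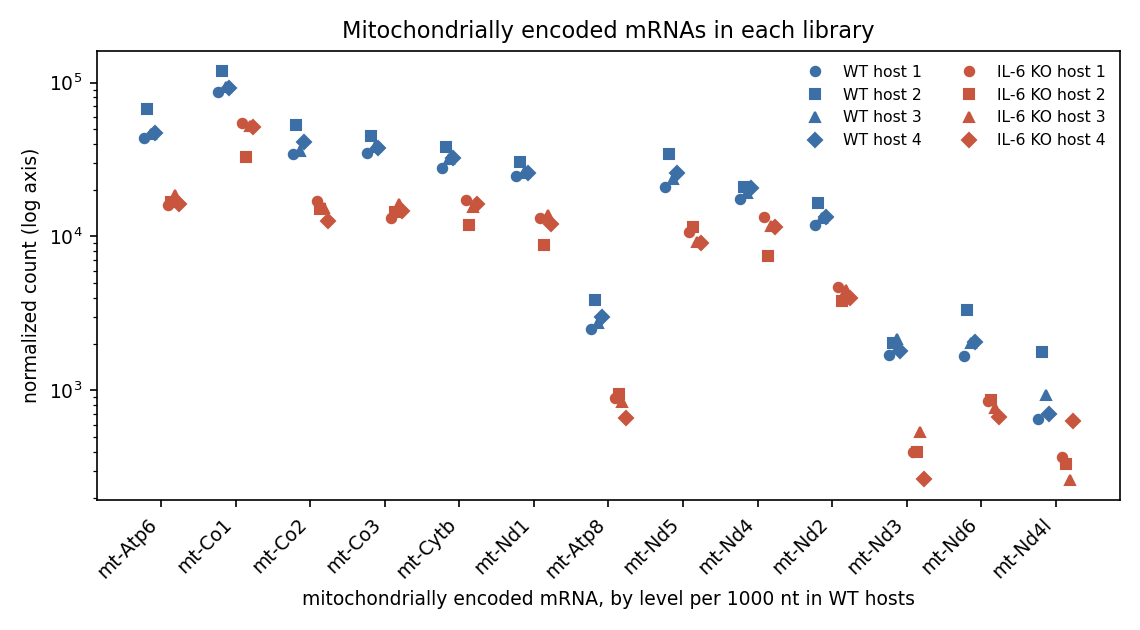
Normalized counts of the 13 mitochondrially encoded mRNAs are shown on a log axis, 1 symbol per library, blue for WT hosts and red for IL-6 KO hosts, ordered by level per 1000 nt in WT hosts. In every mRNA the 4 red symbols lie below the 4 blue ones, with mt-Nd3 the farthest apart at a log2 difference of -2.30 and mt-Nd4 the closest at -0.85.

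The nuclear genes of the same complexes did not follow as a group. Of 78 nuclear subunits, 16 were called higher and 11 lower, with a median of 0.03, and 10 and 7 after removal of the GC trend. Without IL-6 KO replicate 4, 10 were called higher. Atp5j, a coupling subunit of ATP synthase, fell from 5010, 5679, 4969 and 5159 to 3263, 3481, 2994 and 3424 (log2 difference -0.66 ± 0.07 (SE), limma, adjusted p = 0.000978). Ndufa4 (-0.54) and Cox6c (-0.62), both of cytochrome oxidase, fell as well, while Ndufb7 of complex I rose by 0.54. Without the GC trend Ndufa4 was no longer called (-0.17, limma, adjusted p = 0.0814). Mitochondrial ribosomal proteins, which translate the 13 mRNAs, had 16 higher and 5 lower calls among 78, and 9 and 4 after removal of the GC trend. The higher calls numbered 4 without WT replicate 3, 5 without IL-6 KO replicate 1 or 4, 6 without WT replicate 2, 8 without WT replicate 4 and 9 without IL-6 KO replicate 3. Mrpl33 fell from 1688, 1882, 1771 and 1747 to 933, 1001, 1097 and 1025. Mrpl23 was listed at 1087 to 1386 in WT hosts and at 2978, 1694, 3136 and 3103 in IL-6 KO hosts, a difference of 1.05. Its processed pseudogene Mrpl23-ps1 was listed at 1067 to 1830 in WT hosts and at 0, 761, 0 and 0 in IL-6 KO hosts. The sum of both was 2830 ± 334 (SD, n = 4) in WT hosts and 2918 ± 316 (SD, n = 4) in IL-6 KO hosts, which differ by less than the SD of either host.

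Among genes that build ribosomes, more were called higher than lower. Of 68 ribosome biogenesis factors, 25 were called higher and 1 lower, with a median of 0.20, against 10.6% and 9.16% of all genes. After removal of the GC trend 16 were called higher and 0 lower. The mean log2 value of the list was 11.74 ± 0.05 (SD, n = 4) in WT hosts and 11.93 ± 0.02 (SD, n = 4) in IL-6 KO hosts, with no overlap, and leaving out 1 library left 18 to 31 higher calls. Ebna1bp2, a nucleolar factor of the large subunit, read 2628, 2608, 2860 and 2805 in WT hosts and 3890, 4022, 4105 and 3989 in IL-6 KO hosts (log2 difference 0.55 ± 0.06 (SE), limma, adjusted p = 0.000961). Bms1, a GTPase of small subunit assembly, rose by 0.50 and Nob1, the nuclease that trims 18S precursor RNA, by 0.54. Exosc7, a subunit of the RNA exosome that also processes ribosomal RNA, rose from 1447, 1242, 1327 and 1463 to 2343, 2148, 2354 and 2259. Ribosomal protein genes themselves were divided, with 11 called higher and 28 lower of 85 and a median of -0.03 (7 and 23 after removal of the GC trend). The higher calls numbered 6 without WT replicate 3 or IL-6 KO replicate 1 or 4, 7 without WT replicate 2 and 19 without IL-6 KO replicate 2. Among the 27 of them with no near-identical copy among the listed genes, 3 were called higher and 10 lower. Rps14 of the small subunit rose by 0.69 and Rpl14 of the large subunit fell by 0.70 on the log2 scale.

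Translation genes were mixed by role. Of 60 initiation and elongation factors, 18 were called higher and 7 lower (14 and 3 after removal of the GC trend). Without WT replicate 3 these were 11 and 4, and 4 were called lower without WT replicate 2 or IL-6 KO replicate 1 or 4. The scaffold Eif4g1 rose by 0.45 and the eIF3 subunits Eif3a and Eif3c by 0.35 each. Eif5, which makes eIF2 hydrolyse its GTP at the start codon, fell from 10068, 10444, 8951 and 10413 to 5921, 5442, 5907 and 5391. Gspt1, the release factor eRF3a, fell from 9688, 11279, 10621 and 9861 to 6271, 6606, 5816 and 5753. The enzymes that charge tRNAs had 8 higher calls and 1 lower call among 22, with a median of 0.20 (7 and 1 after removal of the GC trend). Farsa, Dars and Nars rose by 0.48, 0.41 and 0.50, and Tars fell by 0.42 on the log2 scale. Of 38 genes of amino acid supply and the integrated stress response, 8 were called higher and 2 lower (4 and 1 after removal). Shmt2, which makes one-carbon units from serine in mitochondria, rose by 0.57 and the glutamine carrier Slc1a5 also by 0.57. Atf5 rose by 0.61, and Atf4, the transcription factor that drives these genes, by 0.29, though Atf4 was not called after removal of the GC trend (0.11, limma, adjusted p = 0.224).

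Replication-dependent histone mRNAs, made in S phase and without a poly(A) tail, had 23 higher and 6 lower calls among 61, with a median of 0.23, and 15 higher calls without WT replicate 2, 3 or 4 or IL-6 KO replicate 1. Hist1h4d, a histone H4 gene, read 43384, 35936, 38891 and 40252 in WT hosts and 66625, 59002, 62235 and 63628 in IL-6 KO hosts (log2 difference 0.67 ± 0.07 (SE), limma, adjusted p = 0.000811). After removal of the GC trend the list had 14 higher and 7 lower calls with a median of 0.06, while Hist1h4d kept a difference of 0.72. Near-identical copies were found for 46 of the 61, and the 15 others had 8 higher calls and 1 lower. Slbp, the protein that binds the stem-loop of histone mRNAs, fell by 0.73 on the log2 scale.

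Genes of mitosis had 18 higher and 4 lower calls among 76, with a median of 0.04, and 16 and 2 after removal of the GC trend. The higher calls were 10 without IL-6 KO replicate 1 or 4 and 11 without WT replicate 3 or IL-6 KO replicate 3. Ncapd2 (chromosome 6, 125168007 to 125191701), a condensin subunit, read 16449, 14740, 15183 and 15165 in WT hosts and 22202, 22608, 21822 and 22639 in IL-6 KO hosts (log2 difference 0.54 ± 0.05 (SE), limma, adjusted p = 0.000719). The kinesin Kifc1 rose by 0.68, the separase gene Espl1 by 0.60 and the kinetochore gene Spc24 by 0.55. Ccna2, the cyclin of S phase and mitotic entry, fell from 11378, 12124, 11635 and 11095 to 7657, 8457, 8206 and 8063. Replication genes had 19 higher and 11 lower calls among 81 (11 and 6 after removal). The higher calls were 10 without WT replicate 3 or IL-6 KO replicate 1 or 4 and 11 without WT replicate 2 or 4, and 5 to 7 were called lower without WT replicate 2 or 3 or IL-6 KO replicate 1 or 4. Pold1, the catalytic subunit of DNA polymerase delta, rose by 0.70, the histone chaperone Chaf1a by 0.75, and Topbp1, an activator of the ATR checkpoint, by 0.54. Rpa3 was called lower at -0.76, but its transcript is 34.2% GC and the difference was 0.16 and not called once the GC trend was removed. Cdk6 rose from 21222, 17347, 19384 and 20336 to 30572, 37484, 29790 and 30386, while Cdk4, the related kinase of G1, fell by 0.27 on the log2 scale.

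Components of the IL-6 pathway had 8 higher and 2 lower calls among 36, with a median of 0.16 (4 and 2 after removal of the GC trend). The higher calls numbered 2 without WT replicate 3, 3 without IL-6 KO replicate 1, 4 without IL-6 KO replicate 4 and 5 without WT replicate 2. Il6ra (chromosome 3, 89864059 to 89913196), the receptor chain, read 401, 365, 481 and 474 in WT hosts and 666, 669, 636 and 723 in IL-6 KO hosts. It rose by 0.65 (SE 0.11, limma, adjusted p = 0.00545), without overlap of the hosts, and by 0.63 without the GC trend. By flow cytometry the authors did not detect the receptor protein on these leukemia cells, and found it on many stromal cells of the marrow. The part of RNA from other marrow cells in the Il6ra values was not tested. Il6st read 468, 530, 733 and 400 in WT hosts and 321, 740, 279 and 340 in IL-6 KO hosts, and its difference of -0.42 ± 0.30 (SE) was not called. Stat3 (0.20) and Socs3 (0.32) were not called either. Grb2, the adaptor that links receptors and BCR-ABL to Ras, fell by 0.44 on the log2 scale, and the phosphatase Ptpn11 (SHP2) rose by 0.38. Socs2, an inhibitor induced through STAT5, rose by 0.44.

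Among 55 known targets of IL-6 and STAT3, 14 were called higher and 0 lower, with a median of 0.22. After removal of the GC trend 11 were called higher and 3 lower, and 9 were called higher without WT replicate 2 or 3 or IL-6 KO replicate 1 or 4. The authors reported that genes downstream of STAT3 did not differ significantly in leukemic cells between these hosts. They also saw no significant phosphorylated STAT3 in these cells before treatment. Their analysis used DESeq2 and gene set enrichment, so its gene lists and thresholds were not those used here. The called targets with the largest differences were genes that neutrophils also use. Lcn2, an iron-scavenging granule protein, read 262, 186, 288 and 293 in WT hosts and 1373, 1044, 570 and 1338 in IL-6 KO hosts. Hp (haptoglobin) read 122, 203, 113 and 146 in WT hosts and 830, 918, 263 and 637 in IL-6 KO hosts. Lrg1 (2.18), Ifitm3 (1.66) and Tnfrsf1a (2.09) rose as well, as did S100a9 from 1109, 1174, 892 and 1070 to 3162, 3697, 1393 and 2819, each with its lowest IL-6 KO value in replicate 3. Sbno2, a corepressor induced through STAT3, rose by 0.41 and was not called after removal of the GC trend (0.19, limma, adjusted p = 0.0972). Of the 14 higher calls, 3 were also on the neutrophil lists, and the 50 targets outside those lists had 11 higher and 0 lower calls with a median of 0.20. Those 50 still held Lrg1, Ifitm3 and Tnfrsf1a, so the split does not set neutrophil RNA apart, and its part in these calls was not tested.

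The lists of other marrow cells were not at 0. Of 25 tested markers of mature neutrophils, 17 were called higher and 0 lower, with a median of 1.35. Of 30 markers listed, 27 were in the table, and their summed level ran from 7117 to 7830 in WT hosts and from 11216 to 24925 in IL-6 KO hosts. Of 14 markers of neutrophil precursors, 11 were called higher and 1 lower, with a median of 1.90, and their sum ran from 1647 to 1818 and from 2299 to 4662. After removal of the GC trend 17 and 11 were called higher, and without IL-6 KO replicate 1 the mature markers had 11 higher calls. Cd177 (chromosome 7, 24743983 to 24760311), a surface protein of neutrophils, read 174, 160, 158 and 160 in WT hosts and 889, 1007, 435 and 780 in IL-6 KO hosts (log2 difference 2.18 ± 0.23 (SE), limma, adjusted p = 0.000801). The granule genes Camp (2.06), Ngp (1.93) and Ltf (1.39) rose with it, and Lyz2 rose from 1535, 1548, 1652 and 1528 to 5089, 3948, 2480 and 4159. Mpo, the peroxidase of promyelocyte granules, read 226, 165, 159 and 257 in WT hosts and 815, 935, 479 and 993 in IL-6 KO hosts. S100a8 differed by 0.41 and was not called (limma, adjusted p = 0.174), but it was called after removal of the GC trend (0.85, limma, adjusted p = 0.021). Fn1 (fibronectin) showed the widest gap of the named higher genes, from 132, 159, 133 and 85.2 to 1843, 2042, 238 and 1535, and Fcnb, Lgals3 and Ece1 followed at 2.43, 2.11 and 2.13. IL-6 KO replicate 3 had the lowest IL-6 KO value in each of these genes but Ece1. In sorted bulk RNA a larger number of contaminating cells and more RNA per such cell cannot be told apart, nor can either be told apart from expression by the leukemic cells.

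Markers of monocytes and macrophages had 7 higher calls and 0 lower among 25, and their sum ran from 6948 to 7834 in WT hosts and from 8967 to 13033 in IL-6 KO hosts. Erythroid markers had 0 higher calls and 1 lower among 20, T and NK cell markers 0 and 2 among 15, and plasma and mature B cell markers 0 and 2 among 11. Dendritic cell markers had 1 and 0 of 7, megakaryocyte markers 0 and 1 of 6, mesenchymal and endothelial markers 1 and 2 of 13, and basophil, mast cell and eosinophil markers 1 and 0 of 4. No marker in the table was at 0 in all libraries of a host, but many listed markers were not in the table. Those absent were 15 of 30 T and NK cell, 8 of 16 dendritic cell and 11 of 31 erythroid markers. Also absent were 12 of 19 megakaryocyte, 12 of 26 mesenchymal and endothelial, and 15 of 21 basophil, mast cell and eosinophil markers. The part of granulocyte RNA in the results on Il6ra, IL-6 targets, adhesion genes and lysosomal genes was not tested. In the plot of list levels IL-6 KO replicate 3 stands low for neutrophil markers (7.14 against 7.84 to 7.96) and with the other IL-6 KO libraries for biogenesis factors (11.93 against 11.90 to 11.94).

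**Figure D5:**
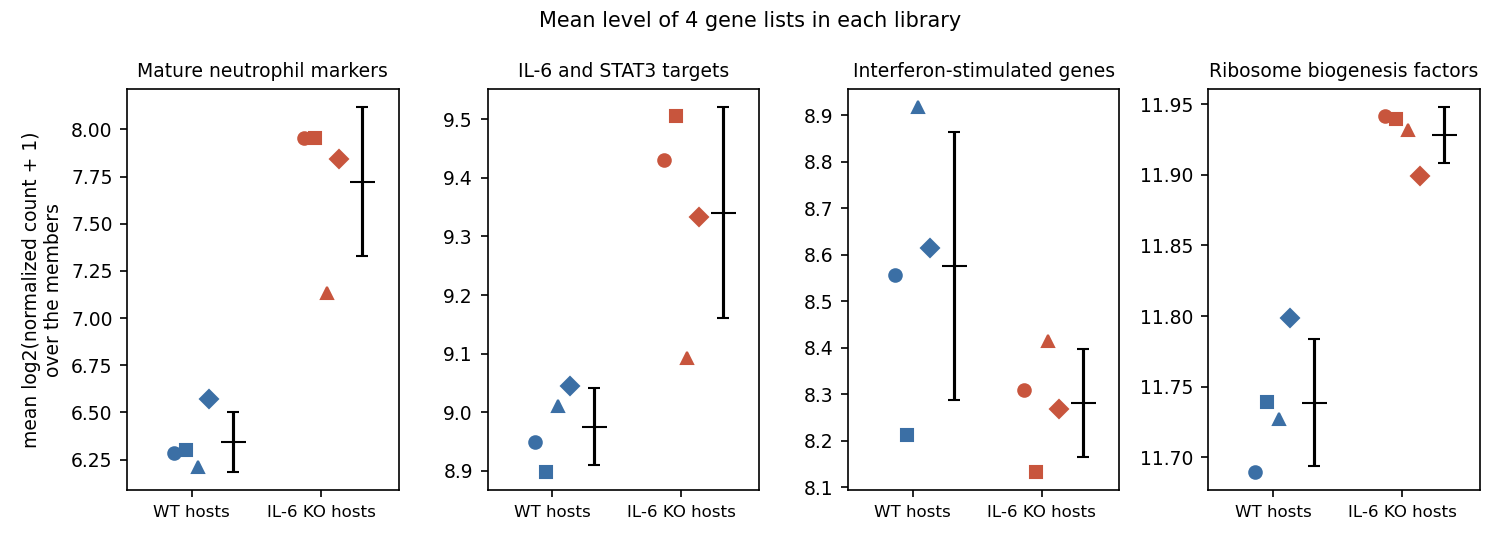
The mean log2(normalized count + 1) over the tested members of 4 lists is shown for each library, blue for WT and red for IL-6 KO hosts, with the mean and SD (n = 4) beside the symbols and replicate numbers given by circle, square, triangle and diamond in order. The vertical axes differ and do not start at 0, and the hosts overlap for interferon-stimulated genes, where WT replicate 2 lies at 8.21 and IL-6 KO replicate 3 at 8.42, and not for the other lists.

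Among interferon-stimulated genes, more were called lower than higher. Interferons act through JAK kinases and STAT factors on an element that is read as GAAANNGAAA in one orientation, and their targets sense viral RNA, block translation and present antigen. Of 97 tested, 20 were called lower, 4 higher and 73 neither, with a median of -0.27, and 16 and 4 after removal of the GC trend. Rtp4 (chromosome 16, 23520291 to 23614222), an interferon-induced chaperone of membrane receptors, read 223, 182, 345 and 187 in WT hosts and 95.1, 67.4, 59.0 and 90.0 in IL-6 KO hosts. It fell by 1.55 on the log2 scale (SE 0.24, limma, adjusted p = 0.00379). Oas1b, of the family that makes 2-5A in response to double-stranded RNA, fell from 93.4, 92.2, 107 and 110 to 57.2, 33.4, 36.1 and 33.5. Ddx58 (RIG-I), a sensor of viral RNA, read 1050, 807, 1161 and 1004 in WT hosts and 561, 425, 560 and 657 in IL-6 KO hosts. Eif2ak2 (PKR), the kinase that halts translation, fell by 0.61 on the log2 scale. The 4 members called higher were Tapbp (0.83), Irf8 (0.38), Psmb8 (0.29) and Ifi211, which read 0 to 8.45 in WT hosts and 8.67 to 29.9 in IL-6 KO hosts. The spread among WT hosts was wide, since the mean log2 value of the list ran from 8.21 in replicate 2 to 8.92 in replicate 3. The lower calls numbered 10 without WT replicate 3, IL-6 KO replicate 1 or IL-6 KO replicate 4, and 17 without WT replicate 2.

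The element was searched in the 250 bases before the transcription start of each gene, in both orientations (GAAANNGAAA and TTTCNNTTTC), in RefSeq promoters of GRCm38.p6. It occurred in 978 of 32851 promoters (2.98%) and, counted by gene, in 936 of 27025 genes (3.46%). Of the 74 tested interferon-stimulated genes with a promoter in that table, 33 held it, comprising 4 of the 13 called lower and 29 of the 61 not called lower. The stretches of those 4 genes are shown because they carry the element near the start site, with the element in capitals, 5′ to 3′ on the strand of the gene. They were chosen after their values were seen.
Ifi214 promoter, chr1:173535997-173536066, minus strand: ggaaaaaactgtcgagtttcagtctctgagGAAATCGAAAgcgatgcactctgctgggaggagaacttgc
Ifi213 promoter, chr1:173599306-173599375, minus strand: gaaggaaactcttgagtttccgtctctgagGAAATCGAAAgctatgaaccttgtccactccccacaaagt
Tgtp2 promoter, chr11:49064243-49064312, minus strand: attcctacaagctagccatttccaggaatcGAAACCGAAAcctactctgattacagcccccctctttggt
Oas1a promoter, chr5:120907526-120907575, minus strand: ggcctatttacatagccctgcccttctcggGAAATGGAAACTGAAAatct

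Ifi213 and Ifi214, DNA sensors of the same cluster on chromosome 1, fell by 0.96 and 0.94 on the log2 scale, the GTPase Tgtp2 by 0.92 and Oas1a by 0.53. In Oas1a 2 matches overlap. Without the GC trend Oas1a was called (-0.62) and the other 3 were not.

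Antigen presentation was not uniform. Of 28 genes of the class I pathway, 5 were called higher and 3 lower, and 3 and 4 after removal of the GC trend. The higher calls numbered 1 without WT replicate 3 or IL-6 KO replicate 1, 2 without WT replicate 2 or IL-6 KO replicate 4, and 3 without WT replicate 1 or 4 or IL-6 KO replicate 3. B2m, the invariant light chain of class I molecules, fell from 8584, 9776, 10308 and 8887 to 6493, 6521, 7658 and 6599 (log2 difference -0.46 ± 0.08 (SE), limma, adjusted p = 0.00601), but its transcript is 41.2% GC and the difference was 0.00 after removal of the GC trend. Tapbp (tapasin), which loads peptides, read 2803, 2008, 2410 and 3366 in WT hosts and 4816, 4878, 4469 and 4381 in IL-6 KO hosts. The class I chaperones moved apart, with Calr higher by 0.37 and Pdia3 lower at -0.41. In the class II pathway (2 higher and 2 lower of 18), the invariant chain Cd74 fell from 821, 794, 789 and 871 to 496, 623, 425 and 461 (log2 difference -0.72, and -0.93 without the GC trend), and the lysosomal reductase Ifi30 rose by 0.49. Cd274 (PD-L1) read 88.5 to 133 in WT hosts and 120 to 158 in IL-6 KO hosts and was not called.

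Genes of the B-lineage program were called in both directions. Of 33 transcription factors and recombinase genes, 3 were called higher and 5 lower, and of 41 genes of the pre-B cell receptor and its signaling, 3 and 4. Without WT replicate 3 or IL-6 KO replicate 1, 2 of the factors were called lower. The called shares, 24.2% of the factors and 17.1% of the receptor genes, lay beside 19.8% of all genes, and 2 and 3 of the factors and 1 and 2 of the receptor genes were called higher and lower after removal of the GC trend. Among the factors, Erg (0.36), Tcf3 (0.36) and Irf8 (0.38) rose. Bcl11a fell by 0.47, Bach2 by 0.58, Ebf1 by 0.30 and Myb by 0.23 on the log2 scale. Ebf1, which works with Pax5 to specify B cells, read 16595, 16879, 17389 and 18887 in WT hosts and 12508, 15736, 14177 and 14292 in IL-6 KO hosts. It was not called after removal of the GC trend (-0.15, limma, adjusted p = 0.276). Nor were Tcf3 (0.11, limma, adjusted p = 0.279) and Myb (-0.19, limma, adjusted p = 0.0589). Of the surrogate light chain genes, Vpreb1 read 17965, 16284, 16186 and 17402 in WT hosts and 26370, 21008, 24477 and 26246 in IL-6 KO hosts (log2 difference 0.53 ± 0.08 (SE), limma, adjusted p = 0.00368). Vpreb2 rose by 0.49, and the transcripts of Vpreb1 and Vpreb2 are near-identical, so reads may have been shared between them. The kinase Syk rose by 0.30, and Malt1, a protease of NF-kB activation, fell by 0.75 on the log2 scale. Syk was not called after removal of the GC trend (0.17, limma, adjusted p = 0.0588). Rag1, Dntt and Ighm were not called.

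In the kinase cascades downstream of BCR-ABL, 10 genes were called higher and 6 lower of 62, with 3 and 5 after removal of the GC trend. Without WT replicate 3 these were 6 and 3, and 3 were called lower without WT replicate 2 or IL-6 KO replicate 1, 3 or 4. Rasa1, a GTPase activator that switches Ras off, fell from 1708, 2804, 1965 and 1688 to 1025, 984, 1120 and 1050. Hras rose from 1350, 1205, 1309 and 1269 to 1928, 2020, 1930 and 2037. Akt1 rose by 0.29 and was not called without the GC trend (0.05, limma, adjusted p = 0.713). Nfkbib (IκBβ), an inhibitor of NF-kB, had the smallest p among the higher genes of the naming rule, with 582, 646, 571 and 604 in WT hosts and 1069, 1171, 1078 and 1045 in IL-6 KO hosts (log2 difference 0.86 ± 0.08 (SE), limma, adjusted p = 0.000541). The list of TNF and NF-kB targets as such had 5 higher and 3 lower calls among 71, with 2 higher calls without IL-6 KO replicate 4 and 8 without IL-6 KO replicate 2. With all libraries its shares, 7.04% and 4.23%, lay below the 10.6% and 9.16% of all genes.

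Genes of the cytoskeleton rose more often than they fell, with 16 and 4 of 53 (8 and 3 after removal of the GC trend). The higher calls numbered 8 without WT replicate 3 or IL-6 KO replicate 1 and 9 without WT replicate 2 or IL-6 KO replicate 4. Myh9, the heavy chain of nonmuscle myosin, read 46080, 41977, 47442 and 48582 in WT hosts and 74726, 82818, 67695 and 73217 in IL-6 KO hosts, and the actin crosslinker Flna rose by 0.71. Tmsb4x, a thymosin that sequesters actin, fell by 0.54 on the log2 scale. Of 36 chemokine receptors and adhesion genes, 8 were called higher and 2 lower. Cxcr4, which holds B-lineage cells in the marrow, differed by 0.05 and was not called. The higher genes included Itgam (0.79), Itgb7 (2.17) and Ccr2 (1.22), which granulocytes, monocytes or lymphocytes also carry.

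The Bcl-2 family had 4 higher calls and 0 lower among 17 (2 and 2 after removal of the GC trend). Without IL-6 KO replicate 1 or 4 there was 1 higher call, and without WT replicate 2, 3 or 4 there were 2. Bax, an effector of apoptosis, read 1418 to 1631 in WT hosts and 2269, 4451, 2004 and 2145 in IL-6 KO hosts, where replicate 2 stood far above the rest. Its difference of 0.77 was not called without the GC trend (0.47, limma, adjusted p = 0.107). Mcl1, an inhibitor of apoptosis, differed by 0.22 and was not called. Sterol and fatty acid synthesis had 6 higher calls and 1 lower among 38, and 1 and 1 after removal. Without IL-6 KO replicate 1 or 4 there were 2 higher calls, and without WT replicate 2 or 3 or IL-6 KO replicate 3 there were 3. Fasn rose by 0.60, Mvk by 0.50 and Mvd by 0.74, and none of these 3 was called after removal (0.41, 0.30 and 0.49). The p53 pathway had 3 higher and 3 lower calls among 35. Among the remaining programs, proteasome subunits had 10 higher and 5 lower calls of 46, chaperones of the unfolded protein response 8 and 3 of 39, heat shock chaperones 7 and 6 of 38, and glycolysis and hypoxia genes 7 and 2 of 43. Lysosome and autophagy genes had 6 and 1 of 59, antioxidant genes 6 and 4 of 32, high-mobility group genes 6 and 2 of 19, Sm and LSm proteins 6 and 5 of 26, RNA polymerase II and Mediator 5 and 4 of 46, the Myc network 5 and 2 of 28, and checkpoint and costimulation ligands 3 and 2 of 19. The 10 high-mobility group genes with no near-identical copy had 1 higher and 1 lower call. After removal of the GC trend the whole list had 6 and 1. The 32 glycolysis and hypoxia genes with no such copy had 3 higher calls and 1 lower. After removal of the GC trend that whole list also had 3 and 1. Over all genes tested, 10.6% were called higher and 9.16% lower. RNA polymerase II and Mediator (10.9% and 8.70%) and the p53 pathway (8.57% each) lay near those shares, as did the higher calls of lysosome and autophagy genes (10.2%). Higher calls of lysosome and autophagy genes numbered 2 without IL-6 KO replicate 1 or 4, 3 without WT replicate 2 or 4 and 13 without IL-6 KO replicate 2, and after removal of the GC trend the list had 7 higher and 4 lower calls. Those of proteasome subunits fell to 5 without WT replicate 3 or IL-6 KO replicate 1, and those of RNA polymerase II and Mediator to 2 without WT replicate 3 or IL-6 KO replicate 1 or 4. Without IL-6 KO replicate 2 these 2 lists had 16 and 9. Without WT replicate 3 or IL-6 KO replicate 4 there were 3 higher calls each among heat shock, glycolysis and antioxidant genes and 4 among chaperones of the unfolded protein response.

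Of 32 SR and hnRNP splicing factors, 4 were called higher and 7 lower with a median of 0.05, and after removal of the GC trend the balance turned, with 7 higher and 4 lower. Without IL-6 KO replicate 2 there were 9 higher calls, and 2 without any other single library. Hnrnpu, which binds nuclear RNA and chromatin, read 55508, 56951, 57461 and 54622 in WT hosts and 31317, 33707, 37758 and 31661 in IL-6 KO hosts (log2 difference -0.74 ± 0.07 (SE), limma, adjusted p = 0.000439), and Hnrnpd and Hnrnph1 fell by 0.68 and 0.83 on the log2 scale. C2H2 zinc finger genes named Zfp had 14 higher and 35 lower calls among 312 with a median of -0.11, and their transcripts have a median GC content of 43.6%. After removal of the GC trend these were 7 and 13 with a median of 0.00. With all genes as deposited, 16 to 21 were called lower without IL-6 KO replicate 1 or 4 or WT replicate 2 or 3, and 4 to 8 higher without IL-6 KO replicate 4 or 1 or WT replicate 2 or 4. Chromatin modifiers had 14 higher and 13 lower calls among 99, and 8 and 7 after removal of the GC trend. Without WT replicate 2 or 4 or IL-6 KO replicate 1 there were 7 higher calls, and without IL-6 KO replicate 1 or 4 there were 4 lower calls. Among the named members were Dnmt3a, a de novo DNA methyltransferase, at 0.67 and Kdm5c, a histone demethylase, at 0.41.

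Several of the largest single losses belonged to no list. Mettl9, a methyltransferase, read 3609, 3147, 3312 and 3466 in WT hosts and 1472, 1855, 1480 and 1450 in IL-6 KO hosts (log2 difference -1.12 ± 0.09 (SE), limma, adjusted p = 0.000198). Ergic2, of the compartment between the ER and the Golgi, fell by 1.04 on the log2 scale, Cnn3 (an actin-binding calponin) by 1.42, and Plac8 by 0.65. Reln, an extracellular matrix protein, fell from 605, 964, 719 and 543 to 126, 247, 205 and 214. Map1b (a microtubule protein) fell from 261, 656, 335 and 284 to 34.8, 103, 54.0 and 98.1. The cadherin Celsr2 fell by 1.61 on the log2 scale. In Map1b, Reln and Celsr2, WT replicate 2 had the top WT value. Of the other higher genes of the naming rule, Nucb1, a calcium-binding Golgi protein, rose by 0.64, Acin1, of the splicing-linked ASAP complex, by 0.51, and Atad3a, an ATPase of mitochondrial membranes, by 0.68.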

How the data were processed

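RNA of mCherry+ B-ALL cells from 4 WT and 4 IL-6 KO hosts was compared, with groups and replicate numbers taken from the labels. The authors aligned reads of 75 nt to mm10, quantified them with salmon 1.3.0 (bias corrections for GC and sequence) and deposited its estimated counts after scaling by DESeq2 1.28.1, as normalized counts, a signal from which whole reads could not be recovered. The exact depth per library is therefore unknown, and the authors state only an approximate depth per sample. The deposited values sum to between 38817792 and 44552085 per library in WT hosts and between 47267047 and 55592959 in IL-6 KO hosts. Of these sums, 13.1 to 22.7% fell to Gm26917. The authors' own fold changes and p-values, and the stroma values, were not used here.

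Genes with a mean over 10 were tested with limma 3.58.1 (R 4.3.3) on log2(normalized count + 1), with an empirical Bayes variance that has a trend with the mean, two-sided. Lists and members were chosen with earlier results of these data known, and lists are described by counts and medians without a test. Symbols, positions, transcript length and GC content came from GENCODE vM21 (GRCm38), in which 15069 of 15080 identifiers were found. Length and GC content are those of the longest annotated transcript of each gene, which need not be the one expressed. Near-identical copies came from BLAST 2.17.0 (at least 97% over 150 nt) of these transcripts against each other. Copies outside the listed genes were not searched. The named genes were, per direction, the 12 protein-coding genes with the smallest p and the 8 with the largest difference (called, mean of at least 100, hosts not overlapping, no near-identical copy), up to 6 members of each program with the smallest p, up to 4 of each cell type list with the largest mean, and a fixed set of identity and IL-6 genes. Some genes that this rule names are not reported here. mt-Co1, mt-Nd4, mt-Nd4l, Mrpl23-ps1, S100a8, Ifi211, Ifi213, Ifi214, Tgtp2, Oas1a and 4 genes of the closing section (Pycard, Cebpa, Cebpe and Snora57) lie outside it and were chosen with their values known. On simulated data with 200 changed genes among 14493, the test recovered 49, 140 and 172 at log2 differences of 0.5, 1 and 2, with 4, 5 and 7 false calls. The simulated noise was independent between genes and had no trend with GC content, so these counts need not hold for the real libraries. The alternatives were pseudocounts of 0.5 and 5, other filters, quantile normalization, median centring, array weights, a prior variance without a trend, the replicate block, removal of the GC and length trend (loess, span 0.3) and each library left out in turn. Same-numbered libraries of the 2 hosts did not deviate together (correlations of -0.00803, -0.00143, -0.000283 and -0.0186). Figures were drawn with matplotlib 3.10.9.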

Additional observations from a re-analysis of the deposited data

Results flagged for a closer look

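In groups of 4 libraries, 1 library was marked where its gap to the nearest of the others was too large a part of the whole range of the group by Dixon's criterion. Over 388 groups of gene or list values, 38 were marked, and chance marks about 1 in 20 groups. Of the 29 marked genes' values, 13 lay in IL-6 KO replicate 2 and 7 in WT replicate 2. Each mark says only that 1 library lay apart from the other 3 of its host.

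In IL-6 KO replicate 2, normalized counts were high for Il6st (740), Pax5 (25352), Cdk6 (37484), Bax (4451), Mcl1 (8919), Bms1 (5969), Syk (12628), Mettl9 (1855) and Mrpl23-ps1 (761, against 0 in the other 3). In the same library they were low for mt-Co1 (32894), Mrpl23 (1694), Calr (27051) and Vpreb2 (9895). Of these genes, Pax5, Il6st and Mcl1 were not called between hosts. IL-6 KO replicate 3 was high for B2m (7658) and Hnrnph1 (8427), and IL-6 KO replicate 1 for Oas1b (57.2).

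In WT replicate 2, values were high for mt-Atp6 (67454), Tmsb4x (31690) and Celsr2 (301) and low for Cd79a (20941), Spc24 (1280), Ifitm3 (25.2) and Flna (15296). WT replicate 1 was high for Cd177 (174) and Itgam (582) and low for Ifi214 (104). WT replicate 3 was high for Lyz2 (1652) and Syk (9876) and low for Fcnb (23.8).

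Among mean log2 values of lists, IL-6 KO replicate 3 was low for mature neutrophil markers (7.14), neutrophil precursor markers (6.41) and checkpoint and costimulation ligands (8.77). IL-6 KO replicate 2 was low for cholesterol synthesis (10.66). WT replicate 4 was high for the Myc network (12.005) and low for glycolysis (10.44), WT replicate 3 low for the class II pathway (7.67), WT replicate 2 high for heat shock chaperones (11.94) and WT replicate 1 low for high-mobility group genes (12.66).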

How the results depend on the processing

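With the trend with GC content and transcript length removed, 1791 genes were called (976 higher, 815 lower), and 1411 with the replicate block added (743 and 668). The replicate block alone gave 1217 higher and 1013 lower calls. Array weights gave 2218 and 1935, a prior variance without a trend 1122 and 1142, a mean over 50 1547 and 1117, and protein-coding genes alone 1507 and 1015. Histones called higher numbered 14 after quantile normalization or the GC step, 36 with array weights and 15 with the prior variance without a trend. Ribosome biogenesis factors called higher numbered 16 after the GC step, with or without the block, interferon-stimulated genes called lower 13 after the block with the GC step, and mature neutrophil markers called higher 11 at a mean over 50, where 15 were tested. The cause was not tested for the other settings. Of 129 named genes called, 22 lost the call and Rpa3 (0.1619) changed sign after the GC step. Genes that were not called and changed sign were Cd79a (-0.0106), Ighm (-0.0500) and Cdkn2a (-0.1115) after the GC step, with or without the block, Igll1 (-0.0279), Ighm (-0.0557) and Dntt (0.1173) after quantile normalization, and Dntt (0.0555) with array weights.

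Leaving out each library in turn gave 1569 to 3327 calls (834 to 1868 higher, 735 to 1459 lower). Higher calls ran from 15 to 33 for histones, 10 to 23 for mitosis genes, 9 to 15 for IL-6 targets and 11 to 17 for mature neutrophil markers, and lower calls from 10 to 17 for interferon-stimulated genes. Log2 differences of uncalled genes ran from -0.0245 to 0.1655 for Pax5, -0.0034 to 0.0662 for Ighm, -0.2320 to 0.0762 for Abl1, -0.2321 to 0.0684 for Dntt, -0.0248 to 0.1383 for Cxcr4 and -0.0005 to 0.1691 for Rag1. Both pseudocounts, the absence of a filter and median centring left all 129 named calls in place. Values were normalized before deposit, so how depth limits the low genes is unknown. A gene that was not called may still differ. In simulated libraries, which had no trend with GC content, 24.5% of genes changed by 0.5 on the log2 scale were recovered.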

Other observations

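Transcription factors of granulocyte development were outside the lists and were chosen after their values were seen. Cebpa, which starts the lineage, read 16.9, 9.9, 16.4 and 22.4 in WT hosts and 83.5, 98.4, 52.3 and 77.5 in IL-6 KO hosts. Cebpe, which drives the making of secondary granules, read 27.9, 7.2, 29.2 and 15.7 in WT hosts and 110.7, 162.0, 37.8 and 117.9 in IL-6 KO hosts. The hosts did not overlap in either gene, and the lowest IL-6 KO value was again that of replicate 3. Pycard (ASC), the adaptor of inflammasomes, read 2.00, 2.27, 2.91 and 2.27 in WT hosts and 51.8, 65.9, 35.9 and 45.1 in IL-6 KO hosts (log2 difference 3.89 ± 0.37 (SE), limma, adjusted p = 0.000524).

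Small noncoding RNAs were measured as well. Of 24 snRNAs, 6 were called higher and 1 lower, and of 64 snoRNAs 6 and 6, against 10.6% and 9.16% of all genes. After removal of the trend with GC content and length, 9 snRNAs and 13 snoRNAs were called higher and 0 of either lower. The medians of snRNAs and snoRNAs were 0.25 and -0.04 as deposited, and 0.74 and 0.19 after that removal. Snora57 read 914, 789, 660 and 666 in WT hosts and 1609, 1475, 1337 and 1150 in IL-6 KO hosts.

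Of the genes called, 67 differed by more than 3 on the log2 scale, 18 higher and 49 lower. Of these, 42 were pseudogenes, 55 were pseudogenes or had a near-identical copy, and 12 were neither. In 16 of the 49 lower genes, 1 IL-6 KO library lay above 10% of the WT mean while the other 3 lay under 1%, and that library was replicate 2 in 13 of them.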
